A study of Homo sapiens with 44 samples.

Results

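The response of Kelly neuroblastoma cells to the METTL3 inhibitor STM2457 was compared between 6 days and 1 day of treatment, gene by gene, as the STM2457 to DMSO difference at 6 days minus the STM2457 to DMSO difference at 1 day. The libraries were chosen by their labels, and 12 of the 44 libraries of the series entered, 3 in each of 4 groups: DMSO at 1 day, STM2457 at 1 day, DMSO at 6 days and STM2457 at 6 days. All were input RNA-seq libraries, made from fragmented poly(A) RNA that had not passed through the m6A antibody. Kelly is an established human neuroblastoma line with amplified MYCN and is labelled wild type, STM2457 was given at 8 µM in culture medium, and DMSO is the solvent alone. The labels number the replicates of each group but do not say whether they came from separate cultures, so the p-values measure the spread between these libraries, which may be technical.

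METTL3 carries the active site of the nuclear enzyme complex that adds N6-methyladenosine (m6A) to mRNA, a mark that reader proteins use to speed decay, steer splicing or alter translation. STM2457 occupies the enzyme's cofactor pocket and leaves the METTL3 protein in place. An mRNA whose own methylation is lost can change within a day, while genes further along a regulatory chain, or tied to the growth state of the culture, can follow later. MYCN-amplified neuroblastoma cells keep an adrenergic identity, held by a circuit of transcription factors such as HAND2, GATA3 and ISL1.

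Each library gave between 5.77 and 31.49 M (mega) fragments assigned to protein-coding genes. The 1 day libraries lay between 24.07 and 26.56 M, the 6 day DMSO libraries between 12.09 and 12.78 M, and the 6 day STM2457 libraries at 28.67, 31.49 and 5.77 M. STM2457 replicate 3 at 6 days stood apart from its group, with 1.79% of its fragments on mitochondrially encoded genes against 5.09% and 4.06% in the other two, and with 348 of the tested genes at 0 against 50 and 53. The inputs of the 2 days were kept in different folders by the authors, with 0 folders shared, so day of treatment and experiment cannot be told apart. In DMSO alone 10603 of 13773 tested genes (77%) differed between 6 days and 1 day, and the median of that difference went from -0.63 in the lowest quartile of genes by GC content to 0.80 in the highest, and from 0.68 in the quartile with the shortest exons to -0.59 in the longest. These trends moved with the days. The only setting that bears on their part in the results is the one with offsets for GC content and length. It is given at the end and for the ribosomal protein list. All 9 adrenergic markers were at 1 CPM (count per M, after scaling) or more in every group, with summed levels of 13700 to 40300 CPM per library, led by CHGA. Markers of other cell types were low but moved with the groups. The 6 fibroblast markers summed to 7.13 to 9.95 CPM in DMSO and 6.27 to 6.80 CPM in STM2457 at 1 day. At 6 days their sums were 37.9 to 44 CPM in DMSO and 20.8 to 24.0 CPM in STM2457. COL1A1 was the highest of the 6, with DMSO and STM2457 means of 6.23 and 4.89 CPM at 1 day and 38.1 and 19.2 CPM at 6 days. In each group but STM2457 at 6 days 1 of the 6 had no count. Glial (GFAP, 4 markers), blood (CD68, 5 markers), epithelial (KRT19, 4 markers) and endothelial (VWF, 4 markers) sums stayed at or under 17.6 CPM; all but the endothelial ones were higher at 6 days. Their part in the results was not tested.

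At 1 day 1687 of 13773 tested genes (12.2%) passed an adjusted p of 0.05 between STM2457 and DMSO, 960 higher (6.97%) and 727 lower (5.28%). The same test at 6 days called 4028 genes (29.2%), 2058 higher (14.9%) and 1970 lower (14.3%). The 3 treated and 3 DMSO libraries did not overlap for 33.1% of tested genes at 1 day and for 39.8% at 6 days. These shares are the background for remarks on overlap below, but not for genes named for size within a class. Those genes had to be free of overlap on each day whose response is claimed, so their lack of overlap is no result. The difference between the 2 responses was itself called for 1158 genes (8.41%): 506 had a higher value at 6 days (3.67%) and 652 a lower one (4.73%), of which 48 (0.349%) and 125 (0.908%) differed by 2-fold or more. The 1158 genes were sorted by which day's response was called. Late only, called at 6 days and not at 1 day, held 796 genes (5.78% of those tested), 366 rising (2.66%) and 430 falling (3.12%). Early only, called at 1 day and not at 6 days, held 101 genes (0.733%), 70 rising (0.508%) and 31 falling (0.225%). Both days in the same direction and larger at 6 days held 167 genes (1.21%), 75 rising (0.545%) and 92 falling (0.668%). Both days but larger at 1 day held 8 (0.0581%), 7 rising (0.0508%) and 1 falling (0.00726%). Opposite ways, called on both days with opposite signs, held 44 genes (0.319%), of which 34 were higher at 1 day and lower at 6 days (0.247%) and 10 the reverse (0.0726%). For the last 42 genes (0.305%) the difference was called and neither day's response was; 23 of these had a higher difference (0.167%) and 19 a lower one (0.138%). A gene missing the threshold on one day is not shown to be without response on that day. Each sorting rests on the test of the difference plus the 2 single tests. When an unadjusted edgeR p of at least 0.05 was asked on the other day, 641 genes stayed late only and 84 early only. With each day fitted alone 726 genes were late only and 123 early only. At the threshold, IGF2BP1 was the last gene inside (difference 0.23, adjusted p = 0.0499) and FAM163A the first outside (0.25, adjusted p = 0.05).

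The balance between directions depended on the 6 day libraries. Without STM2457 replicate 1 at 6 days the difference was called for 1533 genes, 932 higher and 601 lower, and without the shallow STM2457 replicate 3 at 6 days for 1391 genes, 838 higher and 553 lower. Leaving out any single DMSO library at 6 days also gave more higher than lower calls (588 to 603 against 421 to 434), as did leaving out STM2457 replicate 2 at 6 days (553 against 449). Between 814 and 1087 genes were called without any one of the 1 day libraries, always with more lower than higher.

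**Figure D1:**
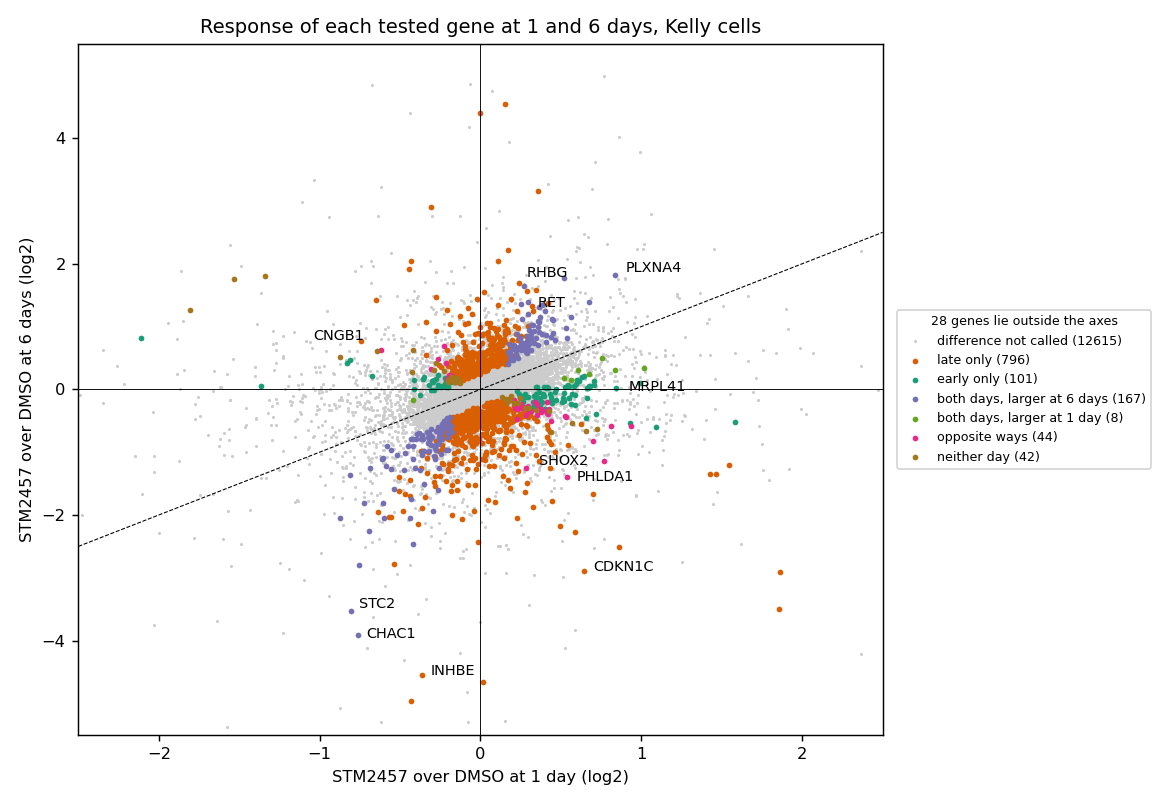
Each point is 1 tested gene, with the log2 STM2457 over DMSO change at 1 day on the x axis and at 6 days on the y axis; colours mark the classes with their numbers of genes, and the dashed line marks equal responses (28 genes lie outside the axes). The 796 late only genes lie in a vertical band near 0 at 1 day, the 101 early only genes near 0 at 6 days, and CHAC1 and STC2 far below the line.

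METTL3 mRNA was a check of neither the dose nor the label, since the inhibitor acts on the protein. METTL3 stood at 90.2, 79.8 and 79.7 CPM in DMSO and 91.4, 86.8 and 95.1 CPM in STM2457 at 1 day, and at 112, 104 and 104 CPM against 105, 110 and 118 CPM at 6 days. Its groups overlapped on both days and the difference in response was -0.08 ± 0.0941 (log2, standard error; edgeR adjusted p = 0.68).

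Of 28 gene lists, the amino acid response had the lowest median difference. ATF4 is a transcription factor translated when amino acids run short or the endoplasmic reticulum is stressed, and with C/EBP partners it switches on amino acid synthesis, uptake and tRNA charging. Of 25 tested members of the amino acid response list, 11 fell and 1 rose at 1 day, all 25 fell at 6 days, and the difference was lower for 20 (80%); of all tested genes 5.28% fell at 1 day, 14.3% fell at 6 days and 4.73% had a lower difference. These 3 shares, and 6.97%, 14.9% and 3.67% for the other direction, are the background for each list below. None had a higher difference by the edgeR test, adjusted or at an unadjusted p of 0.05, or by DESeq2. Their median change was -0.27 at 1 day and -1.26 at 6 days (log2), and the median difference was -1.08, beside 0.01, 0.01 and 0.00 over all tested genes. By class, 8 of the 20 were late only, 11 fell on both days with the larger fall at 6 days, and CEBPG went opposite ways. The count of 20 ranged from 18 to 22 over all alternative settings and left-out libraries.

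CHAC1, an enzyme that degrades glutathione and a target of ATF4, had the largest difference of the named genes called on both days. It lies at chr15:40952962-40956512 (GRCh38, plus strand). CHAC1 stood at 9.61, 9.17 and 7.90 CPM in DMSO and at 4.49, 5.22 and 6.05 CPM in STM2457 at 1 day. At 6 days the DMSO libraries held 83.7, 88.5 and 81.8 CPM and the STM2457 libraries 5.27, 5.30 and 7.68 CPM. The groups did not overlap on either day, which the naming rule required. The treated libraries of both days shared a range of 4.49 to 7.68 CPM while DMSO was higher at 6 days. CHAC1 fell 1.69-fold at 1 day and 15-fold at 6 days, a difference of -3.15 ± 0.189 (log2, standard error; edgeR adjusted p = 2.29e-10).

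STC2, a secreted glycoprotein induced by the same stress, was the next. STC2 (chr5:173314713-173329503, minus strand) was at 9.76, 9.10 and 9.60 CPM in DMSO and 6.21, 4.50 and 5.57 CPM in STM2457 at 1 day. Its 6 day levels were 85.5, 83.4 and 88.3 CPM in DMSO and 7.05, 7.44 and 8.43 CPM in STM2457. The fall was 1.75-fold at 1 day and 11.5-fold at 6 days, and the difference was -2.72 ± 0.166 (edgeR adjusted p = 2.29e-10). INHBE, an activin subunit, was at 0.471 to 1.17 CPM in the 1 day libraries. It then stood at 11.9, 13.1 and 12 CPM in DMSO at 6 days and at 0.387, 0.589 and 0.749 CPM in STM2457. The late response of INHBE was a 23.4-fold fall (difference -4.19 ± 0.475; edgeR adjusted p = 3.15e-06).

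Asparagine synthetase (ASNS), which makes asparagine from aspartate, showed the fall on both days from a higher level. ASNS stood at 105, 103 and 106 CPM in DMSO and 66.9, 72.9 and 67.6 CPM in STM2457 at 1 day. At 6 days it was at 139, 139 and 134 CPM in DMSO and 34.4, 34.1 and 29.6 CPM in STM2457. Here the treated level itself was lower at 6 days than at 1 day, and the difference was -1.44 ± 0.0906 (edgeR adjusted p = 3.26e-10). ATF4 fell by 0.30 at 1 day and by 0.76 at 6 days (log2), and DDIT3, the partner factor also called CHOP, fell by 0.54 and by 1.59. ATF3, a stress-induced repressor of the same family, was at 10.2 to 13.5 CPM in all 6 libraries of 1 day, then at 49.1, 47.5 and 45 CPM in DMSO and 16.5, 16.1 and 17.0 CPM in STM2457 at 6 days (difference -1.49 ± 0.159; edgeR adjusted p = 1.32e-06).

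Much of the difference lay on the DMSO side. In DMSO, 19 of the 25 amino acid response genes were higher at 6 days than at 1 day, with a median of 1.64 (log2), beside 37.6% of all tested genes. In STM2457, 11 were higher and 8 lower, with a median of 0.10, beside 36.4% and 39.7% of all; 76.1% of tested genes differed between the days in STM2457. Over all tested genes both medians were -0.04. These values and the difference share libraries and are not independent of it. Day and folder cannot be told apart here, and the labels give neither cell density nor the time of the last medium change.

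**Figure D2:**
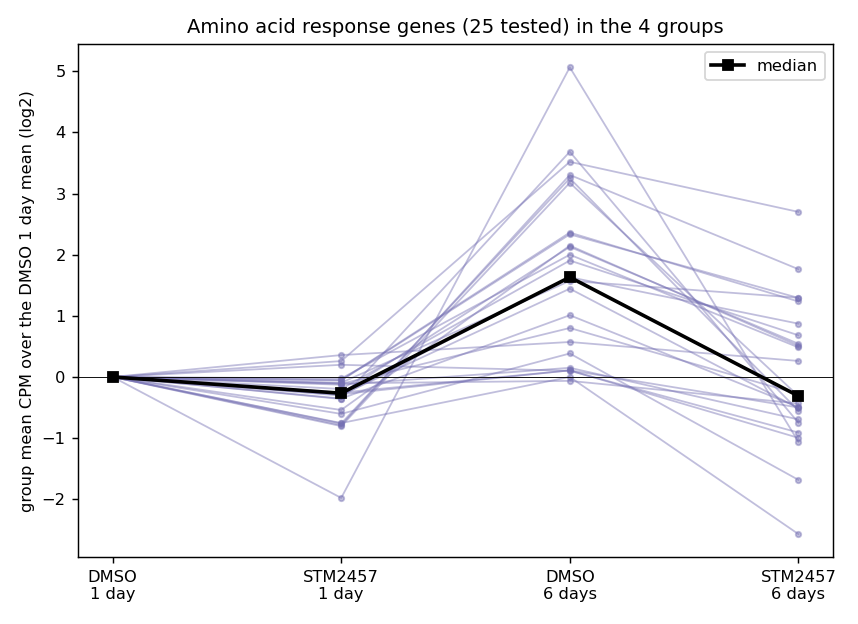
Each line is 1 of the 25 tested amino acid response genes, and the y axis is its group mean CPM over its own mean in DMSO at 1 day (log2); black squares mark the median. The median was -0.27 in STM2457 at 1 day, 1.63 in DMSO at 6 days and -0.31 in STM2457 at 6 days.

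**Figure D3:**
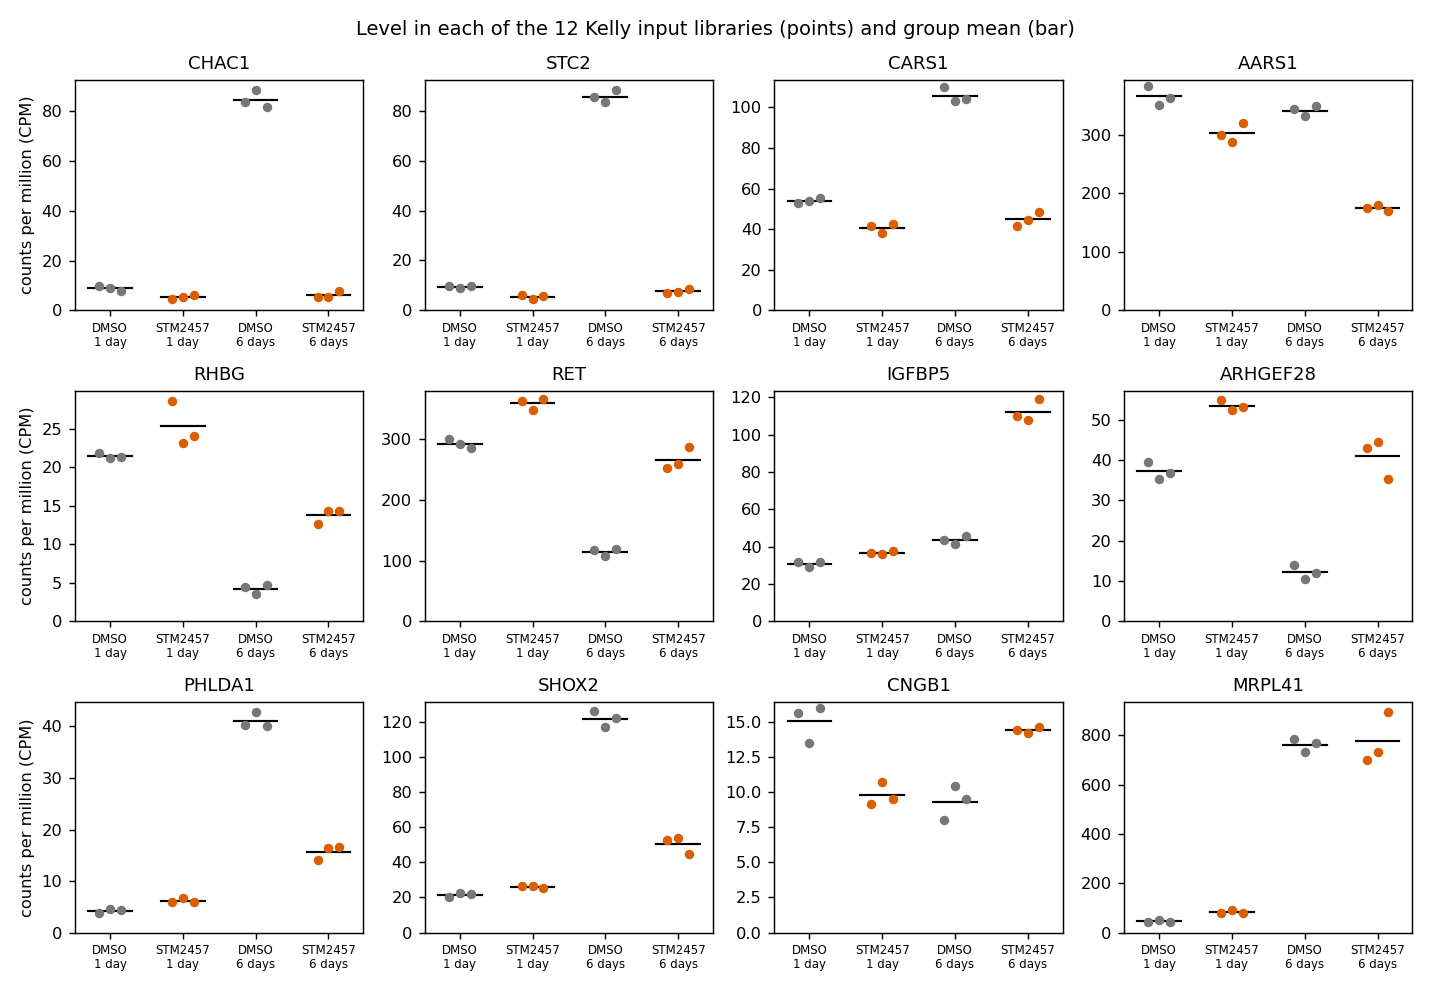
Level in CPM (linear axis from 0) of 12 genes in each of the 12 libraries, DMSO in grey and STM2457 in orange, with bars at the group means. CHAC1 and STC2 were high in DMSO at 6 days alone, RHBG was called at 6 days only, PHLDA1 and SHOX2 went up at 1 day and down at 6 days, and MRPL41 was called at 1 day only.

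The start-site regions of these genes are shown because ATF4 acts through a short composite element. The core searched was TGATGNAA, on both strands, so that TTGCATCA is a match read on the other strand. It was present in 181 of 10924 promoter windows of tested genes (1.66%; 250 bases before to 50 after the start, RefSeq, GRCh38.p14). Among genes that fell on both days with the larger fall at 6 days it was present in 11 of 72 windows (15.3%), and in 11 of 348 late only falling genes (3.16%). By list, it was in 6 of 22 amino acid response genes, 6 of 16 tRNA synthetases and 4 of 13 amino acid transporters; these lists were chosen in part as ATF4 targets, so their shares are not independent of the motif. The other elements searched (CACGTG, TGACGTCA, TCACNCCA and the serum response element) were present in 9.72%, 1.39%, 1.39% and 0% of the 72 windows, beside 10.0%, 3.23%, 3.44% and 0.0549% of all. A match is a description of letters, not of a bound site. The 250 bases before the start of 4 of the 11 genes follow, 5′ to 3′ in the direction of the gene, with the match in capitals; they are the 4 with the largest difference whose match lay wholly before the start.
CHAC1, chr15:40953221-40953470, plus strand: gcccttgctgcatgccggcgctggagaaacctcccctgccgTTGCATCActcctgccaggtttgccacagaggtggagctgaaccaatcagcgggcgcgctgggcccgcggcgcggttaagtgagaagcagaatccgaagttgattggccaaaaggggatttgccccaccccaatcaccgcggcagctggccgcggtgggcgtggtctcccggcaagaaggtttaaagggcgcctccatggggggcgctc
ASNS, chr7:97872409-97872658, minus strand: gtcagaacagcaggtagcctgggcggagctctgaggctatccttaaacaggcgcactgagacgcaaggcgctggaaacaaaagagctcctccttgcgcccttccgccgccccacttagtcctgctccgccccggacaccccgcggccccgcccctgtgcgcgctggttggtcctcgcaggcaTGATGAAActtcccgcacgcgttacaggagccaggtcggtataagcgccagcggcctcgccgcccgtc
ITGB5, chr3:124901419-124901668, minus strand: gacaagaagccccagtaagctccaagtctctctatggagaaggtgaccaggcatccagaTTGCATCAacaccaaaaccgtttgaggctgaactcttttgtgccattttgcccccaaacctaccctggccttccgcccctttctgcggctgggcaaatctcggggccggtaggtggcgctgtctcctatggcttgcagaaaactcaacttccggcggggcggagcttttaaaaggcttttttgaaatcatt
AARS1, chr16:70289507-70289756, minus strand: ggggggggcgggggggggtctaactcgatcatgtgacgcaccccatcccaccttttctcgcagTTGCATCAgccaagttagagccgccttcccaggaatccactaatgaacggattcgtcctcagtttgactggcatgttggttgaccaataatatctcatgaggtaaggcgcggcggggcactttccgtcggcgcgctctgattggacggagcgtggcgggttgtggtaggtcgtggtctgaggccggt
The match began 209 bases before the RefSeq start in CHAC1, 68 in ASNS, 191 in ITGB5 and 187 in AARS1. For CHAC1 this start lies inside the gene span given above, which is that of the exons used for counting. ITGB5, an integrin subunit on no list here, fell by 0.26 at 1 day and by 1.24 at 6 days (log2).

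Serine and one-carbon metabolism supplies glycine and methyl groups. Of 16 tested genes of serine, one-carbon and proline synthesis, 8 fell at 1 day and 10 at 6 days, and the difference was lower for 8 and higher for 1 (56.2% called, beside 8.41% of all tested genes in either direction). PHGDH, the first enzyme of serine synthesis, was at 462, 477 and 458 CPM in DMSO and 309, 294 and 310 CPM in STM2457 at 1 day, and at 675, 632 and 707 CPM against 306, 314 and 309 CPM at 6 days (difference -0.50 ± 0.0751; edgeR adjusted p = 9.69e-05). PSAT1, the next enzyme, was late only: 56.0, 58.4 and 63.6 CPM against 52.4, 55.1 and 54.2 CPM at 1 day, and 62.8, 58.9 and 62.0 CPM against 29.3, 31.8 and 31.8 CPM at 6 days (difference -0.85 ± 0.105; edgeR adjusted p = 8.88e-06). ALDH1L2, a mitochondrial folate enzyme, fell by 0.44 and by 2.05.

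The cytosolic aminoacyl-tRNA synthetases, which load tRNAs with amino acids, responded early as well as late. At 1 day 14 of 20 fell and at 6 days 13, and the difference was lower for 9 (45% called). Cysteinyl-tRNA synthetase (CARS1) was at 52.7, 54.0 and 55.4 CPM in DMSO and 41.5, 38.1 and 42.4 CPM in STM2457 at 1 day, and at 110, 103 and 104 CPM against 41.5, 44.6 and 48.5 CPM at 6 days. The groups were apart on both days, and the CARS1 difference was -0.84 ± 0.101 (edgeR adjusted p = 6.63e-06). AARS1, which charges alanine tRNA, stood at 384, 352 and 363 CPM against 300, 288 and 321 CPM at 1 day, and at 344, 332 and 350 CPM against 175, 181 and 170 CPM at 6 days (difference -0.69 ± 0.0791; edgeR adjusted p = 3.66e-06). For AARS1 the DMSO levels of the 2 days lay close together, unlike those of CHAC1.

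Amino acid transporters gave 3 falls at 1 day, 8 at 6 days and a lower difference for 7 of 15 (46.7%). SLC7A11, the cystine importer, stood at 10.4, 9.95 and 13.8 CPM in DMSO and 6.46, 6.82 and 7.00 CPM in STM2457 at 1 day. Later it was at 13.6, 11.1 and 9.48 CPM against 1.74, 1.21 and 2.81 CPM at 6 days, with a difference of -2.04 ± 0.297 (edgeR adjusted p = 7.64e-05). SLC6A9, a glycine transporter, fell 1.66-fold at 1 day and 3.51-fold at 6 days. Endoplasmic reticulum chaperones had a lower difference for 5 of 18 members (27.8%), and for 3 to 6 over the alternatives. Among them XBP1, the factor of the unfolded protein response, fell by 0.32 at 1 day and by 0.98 at 6 days, while SDF2L1, a chaperone cofactor, was up by 0.41 at 1 day and down by 0.19 at 6 days.

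Cytosolic ribosomal protein genes had calls on both days. Of 56 tested, 13 fell at 1 day (5.28% of all tested genes did), 44 fell (14.3% of all) and 1 rose at 6 days, and the difference was lower for 24 (42.9%, beside 4.73% of all; 16 to 25 genes over the alternatives); 21 of the 24 were late only. The changes were small, with a median change of -0.11 at 1 day and -0.37 at 6 days (log2) and a median difference of -0.23. RPL38 was at 948, 769 and 777 CPM in DMSO and 769, 790 and 819 CPM in STM2457 at 1 day, which overlap. At 6 days it was at 2490, 2550 and 2590 CPM against 1640, 1570 and 1400 CPM, and its difference was -0.66 ± 0.101 (edgeR adjusted p = 0.000134). These genes have short exons, and in the quartile of all genes with the shortest exons the median difference was -0.106, against 0.068 in the longest. With offsets for GC content and length the difference was called for 23 genes of the list, all lower. The part of exon length was not tested otherwise. Among the 13 mitochondrially encoded genes the median difference was -0.60, and 0 passed the edgeR test, with 3 lower at an unadjusted p of 0.05 and 0 by DESeq2. Of these genes 6 were called, all lower, without the low-count filter and also without STM2457 replicate 1 at 6 days, and the 3 libraries of that group ranged from 1.79% to 5.09% in mitochondrial share.

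Of 26 hypoxia and glycolysis genes 13 fell at 1 day (5.28% of all tested genes did) and 19 at 6 days (14.3% of all), with a lower difference for 5 (19.2%, beside 4.73% of all). EGLN3, a prolyl hydroxylase that marks HIF for decay, was at 3.66, 3.66 and 3.40 CPM against 1.90, 3.12 and 3.33 CPM at 1 day, and at 13.1, 16.2 and 14.9 CPM against 3.95, 3.12 and 5.99 CPM at 6 days (difference -1.53 ± 0.319; edgeR adjusted p = 0.00308). NDRG1, a stress-responsive gene of differentiating cells, fell by 1.27 at 6 days (log2), and ALDOC, an aldolase of nervous tissue, fell by 0.88, both late only. In the cholesterol list 3 of 22 genes rose at 1 day and 6 fell at 6 days. The difference was called for 2 (9.09%, near the 8.41% of all tested genes; 1 to 6 genes over the alternatives): FDFT1, the first committed enzyme of sterol synthesis, went opposite ways (0.21 and -0.17), and FDPS, an enzyme before it, was late only and fell by 0.38.

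Transcription factors that hold the adrenergic identity had the highest median difference of the lists, 0.22 (log2). Of 14 adrenergic core transcription factors, 4 rose and 1 fell at 1 day, 9 rose and 2 fell at 6 days, and the difference was higher for 6 and lower for 1 (50% called, beside 8.41% of all; a total of 3 to 8 genes over the alternatives). TBX2, a T-box factor of the same circuit, rose by 0.31 at 1 day and by 1.03 at 6 days, from 322, 308 and 322 CPM to 605, 642 and 697 CPM on the later day (difference 0.71 ± 0.0844; edgeR adjusted p = 5.16e-06). GATA3 and ISL1, late only, rose by 0.57 and by 0.39, and PHOX2A by 0.18. MYCN, the amplified driver, was at 3250, 3330 and 2980 CPM against 3090, 3090 and 3200 CPM at 1 day, and at 6110, 6030 and 6280 CPM against 7060, 6890 and 8050 CPM at 6 days. The MYCN difference was 0.28 ± 0.0854 (edgeR adjusted p = 0.0413), and without any one of DMSO replicates 1 and 2 or STM2457 replicates 1 to 3 at 1 day it was no longer called, nor with the replicate number as a block (range of adjusted p over all alternatives 0.000926 to 0.104). TFAP2B was the 1 member with a lower difference, -0.27.

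Neuronal genes were divided. Of 29, 9 rose and 1 fell at 1 day, 13 rose and 4 fell at 6 days, and the difference was higher for 3 and lower for 4 (24.1% called). RET, the receptor tyrosine kinase for GDNF-family ligands, was at 300, 292 and 285 CPM in DMSO and 363, 347 and 366 CPM in STM2457 at 1 day. At 6 days it was at 118, 107 and 119 CPM in DMSO and 252, 258 and 287 CPM in STM2457, so that the 6 day level was nearer the 1 day level in STM2457 than in DMSO (difference 0.91 ± 0.0838; edgeR adjusted p = 1.65e-07). RET was also higher at 6 days in NGP, a second MYCN-amplified neuroblastoma line, by 2.00 (log2; edgeR adjusted p = 7.55e-08). NCAM1, a neural adhesion molecule, and ELAVL4, a neuronal RNA-binding protein, had higher differences of 0.44 each. STMN2 and STMN4, microtubule regulators of growing neurites, were early only: STMN2 was at 241, 230 and 235 CPM against 303, 303 and 303 CPM at 1 day, and at 362, 366 and 383 CPM against 372, 369 and 340 CPM at 6 days (difference -0.40 ± 0.0739; edgeR adjusted p = 0.00104). GAP43, the growth cone protein, was late only and fell by 0.33. NGFR, the low affinity neurotrophin receptor, was at 1.00 to 1.78 CPM in the 1 day libraries and stood at 28.3, 23.4 and 23.7 CPM against 13.5, 13.7 and 10.3 CPM at 6 days (difference -1.19 ± 0.273; edgeR adjusted p = 0.00694).

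Axon guidance receptors with called differences included both directions, 4 higher and 2 lower of 39 (15.4%). PLXNA4, a semaphorin co-receptor, rose 1.79-fold at 1 day and 3.54-fold at 6 days, and PLXNA2 was late only, at 55.7, 50.1 and 50.7 CPM against 90.0, 99.4 and 97.2 CPM at 6 days (difference 0.77 ± 0.0905; edgeR adjusted p = 5.02e-06). Among 21 catecholamine and secretory granule genes 5 fell and 2 rose at 1 day, 11 fell and 2 rose at 6 days, with 4 lower and 2 higher differences (28.6%). Tyrosine hydroxylase (TH), which makes the dopamine precursor, was at 528, 686 and 528 CPM against 447, 459 and 462 CPM at 1 day, and at 1150, 1110 and 1090 CPM against 522, 576 and 594 CPM at 6 days (difference -0.64 ± 0.109; edgeR adjusted p = 0.000449). SLC18A2, the vesicular monoamine transporter, was late only and fell 1.80-fold, though PDZD8 shares 52.3% of its exon bases and the counts cannot be told apart there.

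Signalling feedback genes gave small groups. Of 20 BMP and TGF-beta feedback genes 8 rose and 1 fell at 6 days, and 4 had a higher difference: SMAD7 (0.85), SKIL (0.87), SMAD9 (0.65) and ID2 (0.44); the 1 lower was INHBE. SKIL, a repressor of SMAD signalling, kept its call under 10 of 18 alternatives. The called share of this list was 25%, with 2 to 6 genes over the alternatives. After thinning only 1 was higher and 1 lower. Of 17 Notch genes 3 had a higher difference and 2 a lower one (29.4% called), with 2 to 5 genes over the alternatives. In the Notch list DLL1, a ligand, was late only: 5.85, 6.43 and 6.13 CPM against 7.66, 7.11 and 6.82 CPM at 1 day, and 3.85, 3.62 and 3.32 CPM against 8.06, 9.38 and 7.87 CPM at 6 days (difference 1.02 ± 0.235; edgeR adjusted p = 0.00725). The 1 day libraries of DLL1 did not overlap either, and its difference was not called after thinning (edgeR adjusted p = 0.0639). HEYL, a target repressor, had a higher difference of 0.55, and HEY1, another target, rose by 0.47 at 1 day and was at 38.6, 36.1 and 38 CPM against 36.5, 38.8 and 37.3 CPM at 6 days. Short-lived mRNAs had 6 lower differences and 1 higher of 26 (26.9%). JUN rose by 0.33 at 1 day and changed by -0.10 at 6 days, DUSP6, a phosphatase that ends ERK signals, changed by 0.40 and by -0.31, and SPRY4, an inhibitor of receptor kinase signalling, was late only with a fall of 1.05. Of the p53 targets, CDKN1A, the CDK inhibitor p21, fell on both days: 146, 151 and 130 CPM against 83.3, 77.7 and 82.6 CPM at 1 day, and 181, 155 and 173 CPM against 57.0, 66.7 and 78.1 CPM at 6 days (difference -0.56 ± 0.119; edgeR adjusted p = 0.00368). In NGP the CDKN1A change at 6 days was -1.73 (log2; edgeR adjusted p = 3.42e-05).

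In the remaining lists the called share is to be read against the 8.41% of all tested genes. DNA replication genes had 3 higher differences of 31 (9.68%; 0 to 8 genes over the alternatives), led by LIG1 (0.28, called under 13 of 18 alternatives) and MCM4 (0.26, under 15). Mitosis genes had 1 higher and 2 lower of 28 (10.7%), and 14 fell at 6 days. MKI67 was the higher one (0.29), and UBE2C (-0.43) and PTTG1 (-0.34, called under 5 of 18 alternatives) the lower ones. Of 22 m6A writers, erasers and readers, 8 rose at 1 day (6.97% of all tested genes did) and 10 at 6 days (14.9% of all), and the difference was called for IGF2BP1 alone (4.55%; 0 to 3 genes over the alternatives). Among 8 SOCS and cytokine feedback genes 0 passed the edgeR test on either day or in the difference, also at an unadjusted p of 0.05, and 0 had a difference called by DESeq2. Voltage-gated and potassium channels had 1 called difference of 26 (3.85%), KCNN1, a calcium-activated potassium channel that rose by 0.51 at 1 day and changed by -0.21 at 6 days. Of 20 mesenchymal genes 3 had a higher difference and 2 a lower one (25%): FOSL2, an AP-1 factor, rose late by 0.78, and LGALS1, a galectin, fell late by 1.02. The methionine and SAM list had 1 higher and 1 lower difference of 15 (13.3%; 0 genes called after thinning, by edgeR). The lower one was CTH, which makes cysteine from cystathionine, down by 0.90 at 6 days and called under 8 of 18 alternatives (adjusted p up to 0.641). Interferon-induced genes had 1 lower of 13 (ISG20, -1.19, called under 6 of 18 alternatives), autophagy and lysosome genes 2 lower of 23 (GABARAPL1, -1.05, and GLA, -0.47), splicing factors 1 higher of 31 (SON, 0.34) and p53 targets 1 other, AEN (0.29), of 20. Replication-dependent histones had 1 higher and 2 lower differences of 19 (15.8%), and most of their mRNAs carry no poly(A) tail, so poly(A) libraries hold them in part only.

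**Figure D4:**
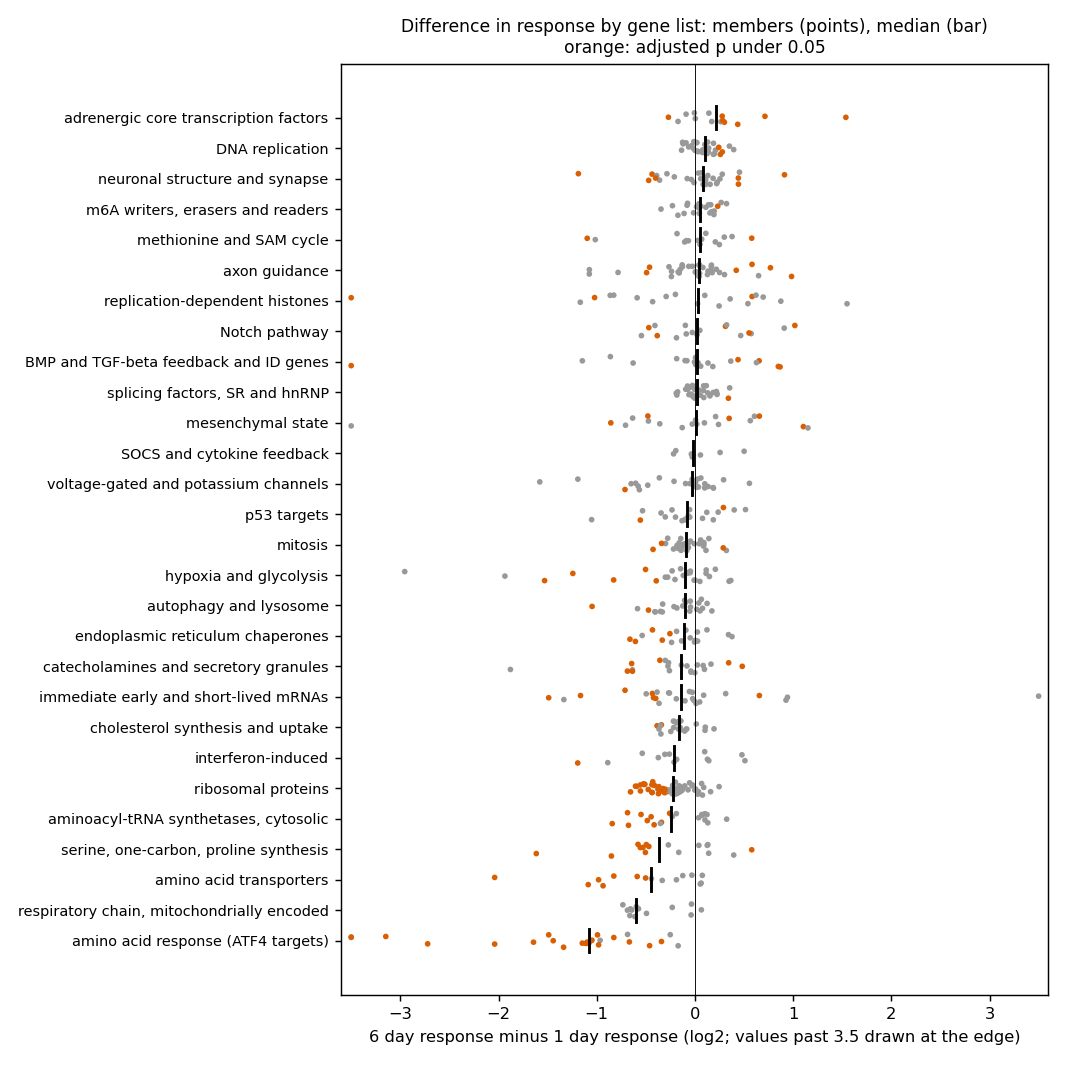
Each point is 1 member of a gene list, placed by its 6 day minus 1 day response (log2; values past 3.5 are drawn at the edge), in orange where the adjusted p was under 0.05; black bars are list medians. The amino acid response list sits lowest, at a median of -1.08, and the adrenergic factors highest, at 0.22.

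The late only rises named for size follow. NR3C2, the mineralocorticoid receptor, was at 6.97, 5.81 and 6.43 CPM against 6.49, 7.73 and 7.40 CPM at 1 day. At 6 days it was at 0.769, 0.543 and 0.474 CPM in DMSO and 2.87, 2.91 and 2.25 CPM in STM2457, from raw counts of 8, 6 and 5 in DMSO, and the difference was 2.05 ± 0.36 (edgeR adjusted p = 0.000603). IGFBP3, an IGF-binding protein, was at 1.94 to 2.96 CPM in all 1 day libraries and at 2.88, 3.80 and 3.79 CPM against 9.10, 9.21 and 10.5 CPM at 6 days (difference 1.46 ± 0.315; edgeR adjusted p = 0.00409). IGFBP3 was higher in NGP too, by 2.92 (edgeR adjusted p = 3.79e-10). RHBG, an ammonium transporter, was at 21.9, 21.2 and 21.4 CPM against 28.7, 23.2 and 24.1 CPM at 1 day, and at 4.42, 3.62 and 4.74 CPM against 12.7, 14.3 and 14.4 CPM at 6 days (difference 1.45 ± 0.188; edgeR adjusted p = 1.66e-05). RHBG missed the 1 day call only after adjustment (edgeR unadjusted p = 0.0386), and its 1 day libraries did not overlap. LTB4R2, a leukotriene receptor, shares 59.9% of its exon bases with NOP9, CIDEB and LTB4R, and its difference of 1.48 cannot be assigned among them. For NR3C2, RHBG and LTB4R2 the DMSO level was lower at 6 days than at 1 day, and the STM2457 level lay between them.

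The 5 late falls named for size were of genes whose DMSO level was higher at 6 days than at 1 day. CDKN1C, the CDK inhibitor p57, was at 0.211 to 0.544 CPM in all 6 libraries of 1 day, then at 30.5, 31.1 and 31.0 CPM in DMSO and 3.33, 4.15 and 5.99 CPM in STM2457 at 6 days. The fall at 6 days was 7.46-fold, and the difference was -3.54 ± 0.448 (edgeR adjusted p = 1.28e-05), with a 1 day change that its low level leaves imprecise (0.64 ± 0.397). AQP1, a water channel, was at 2.89, 2.40 and 3.47 CPM against 2.42, 3.59 and 2.71 CPM at 1 day, and at 45.1, 49.7 and 57.0 CPM against 8.95, 9.42 and 10.1 CPM at 6 days (difference -2.42 ± 0.231; edgeR adjusted p = 2.86e-07). ECEL1, a neuronal endopeptidase, went from 68.2, 65.6 and 68.8 CPM to 19, 19.3 and 22.7 CPM at 6 days, and at 1 day all of its libraries lay between 6.27 and 9.38 CPM. SECTM1, a secreted membrane-associated protein, fell 3.11-fold. XAGE1B, a cancer-testis antigen, was at 0.0333 to 0.449 CPM at 1 day and at 32.7, 31.1 and 31.5 CPM against 6.24, 18.8 and 12.4 CPM at 6 days, and its call was lost under 8 of 18 alternatives.

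On the both-day rising side, ARHGEF28, a guanine nucleotide exchange factor for small GTPases, was at 39.4, 35.4 and 36.9 CPM against 54.9, 52.3 and 53.1 CPM at 1 day, and at 14.1, 10.4 and 11.9 CPM against 43.0, 44.4 and 35.4 CPM at 6 days (difference 1.26 ± 0.144; edgeR adjusted p = 3.39e-06). IGFBP5 was at 31.6, 29.0 and 31.9 CPM against 36.6, 36.2 and 37.5 CPM, and then at 43.5, 41.7 and 45.9 CPM against 110, 108 and 119 CPM (difference 1.10 ± 0.102; edgeR adjusted p = 1.75e-07). In NGP cells ARHGEF28 was higher by 0.65 and IGFBP5 went the other way, at -0.79 (edgeR adjusted p = 0.00341).

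Early only responses were fewer. MRPL41, a protein of the mitochondrial ribosome, was the clearest rise: 44, 52.9 and 43.7 CPM in DMSO and 81.3, 89.8 and 81.0 CPM in STM2457 at 1 day. At 6 days the groups overlapped, at 785, 731 and 769 CPM against 701, 733 and 893 CPM, and the difference was -0.82 ± 0.114 (edgeR adjusted p = 4.48e-05). The DMSO level of MRPL41 was itself far apart between the days, as was that of C11orf96, which was at 19.5, 16.7 and 16 CPM against 28.4, 27.5 and 26.6 CPM at 1 day and at 68.5, 73.6 and 72.3 CPM against 66, 61.4 and 68.4 CPM at 6 days (difference -0.80 ± 0.118; edgeR adjusted p = 8.81e-05). EMC6, a subunit of the membrane protein insertase, and PET117, an assembly factor of cytochrome oxidase, rose by 0.66 and 0.59 at 1 day, but share 74.0% and 61.9% of their exon bases with P2RX5-TAX1BP3 and KAT14. PET117 kept its call in the difference under 7 of 18 alternatives and EMC6 under 14. The 70 early rising genes had a median exon length of 2474 bases and a median GC content of 57.2%, beside 5163 bases and 49.1% over all tested genes.

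On the early falling side TNNT2, cardiac troponin T, was at 10.0, 8.65 and 9.23 CPM against 5.63, 7.07 and 4.8 CPM at 1 day, and at 29.9, 24.4 and 30.1 CPM against 31.6, 32.7 and 33.7 CPM at 6 days (difference 0.89 ± 0.185; edgeR adjusted p = 0.00308). MAGEA2, a cancer-testis antigen with near-identical copies, fell 2.57-fold at 1 day from 0.85 to 1.37 CPM, so its early call rests on few fragments. HS3ST4, a heparan sulfate sulfotransferase, and DNAJC18, a J-domain co-chaperone, fell by 0.41 and 0.35 at 1 day and changed by 0.15 and 0.19 at 6 days; their differences were called under 10 and 13 of 18 alternatives. The 8 genes called on both days with the larger response at 1 day included CCDC85B, up 2.02-fold at 1 day and 1.26-fold at 6 days; LAMTOR2, of the lysosomal platform for mTORC1, up 1.79-fold and 1.24-fold; JUND (0.67 and 0.25, log2); and PQBP1, a splicing-related protein, down 1.33-fold and 1.12-fold. The differences of CCDC85B and PQBP1 were each called under 10 of 18 alternatives.

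Of the 44 genes that went opposite ways, 34 were up at 1 day and down at 6 days. This split moved with the settings. Without STM2457 replicate 1 at 6 days 26 went this way and 33 the reverse, and without the low-count filter 23 and 22. Without DMSO replicate 2 at 1 day the numbers were 50 and 8. PHLDA1, a pleckstrin-homology protein induced by growth factors, was at 3.87, 4.55 and 4.33 CPM in DMSO and 5.87, 6.67 and 6.01 CPM in STM2457 at 1 day. The 6 day levels were 40.3, 42.8 and 40.0 CPM in DMSO and 14.0, 16.4 and 16.7 CPM in STM2457. The groups did not overlap on either day, as the naming rule required. The rise was 1.45-fold, the fall 2.64-fold and the difference -1.94 ± 0.175 (edgeR adjusted p = 1.24e-07). SHOX2, a homeobox factor, was at 20.3, 22.3 and 22 CPM against 26.8, 26.4 and 25.4 CPM at 1 day, and at 126, 117 and 122 CPM against 52.5, 54.1 and 44.6 CPM at 6 days (difference -1.53 ± 0.11; edgeR adjusted p = 2.68e-09). In NGP cells both fell at 6 days, with changes of -1.07 for PHLDA1 (edgeR adjusted p = 0.000153) and -1.31 for SHOX2 (edgeR adjusted p = 0.000857).

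IRX6, another homeobox factor, was at 13.2, 15.1 and 14.3 CPM against 25.2, 26.6 and 23.0 CPM at 1 day, and at 20.7, 19.7 and 26.4 CPM against 13.4, 15.2 and 17.2 CPM at 6 days. Unlike the others its DMSO levels were within 2-fold of each other on both days, and its difference was -1.39 ± 0.176 (edgeR adjusted p = 1.27e-05). G0S2, an inhibitor of lipolysis, rose 1.63-fold and fell 1.77-fold, and LARP6, which binds collagen mRNAs, rose 1.44-fold and fell 1.35-fold. NPW, a neuropeptide precursor, was at 0.367 to 1.47 CPM at 1 day and at 31.2, 25.7 and 27.4 CPM against 18, 17.4 and 22.3 CPM at 6 days; its difference of -1.51 was not called without STM2457 replicate 3 at 1 day or after thinning (adjusted p up to 0.637). The median of these 34 genes in DMSO was 1.52 higher at 6 days than at 1 day (log2), and in STM2457 0.84.

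The 10 genes that were down at 1 day and up at 6 days had smaller changes. CNGB1, a cyclic nucleotide-gated channel subunit, was at 15.6, 13.5 and 16 CPM in DMSO and 9.15, 10.7 and 9.49 CPM in STM2457 at 1 day, and at 7.98, 10.4 and 9.48 CPM against 14.4, 14.2 and 14.6 CPM at 6 days. The 2 responses nearly mirror each other, at -0.62 ± 0.124 and 0.63 ± 0.141, with a difference of 1.25 ± 0.188 (edgeR adjusted p = 0.00011). C14orf132 was at 390, 365 and 372 CPM against 317, 315 and 332 CPM at 1 day, and at 162, 159 and 157 CPM against 247, 254 and 269 CPM at 6 days (difference 0.91 ± 0.0754; edgeR adjusted p = 3.26e-08), and it was higher in NGP by 0.76 (edgeR adjusted p = 0.00491). SEZ6, a synaptic membrane protein, changed by -0.26 and 0.48, DPYSL2, a collapsin response mediator of axon growth, by -0.22 and 0.42, TMEM140 by -0.31 and 0.33, and SNRNP200, a spliceosomal helicase, by -0.19 and 0.23. TMEM140 shares 22.7% of its exon bases with CYREN.

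Among the 42 genes called in the difference but on neither day, CNKSR3, a scaffold of kinase signalling, was at 4.79, 5.21 and 4.93 CPM against 7.21, 7.43 and 5.61 CPM at 1 day, and at 3.56, 3.26 and 3.22 CPM against 2.05, 2.53 and 0.936 CPM at 6 days (difference -1.11 ± 0.322; edgeR adjusted p = 0.0329). RASGRF2, a Ras exchange factor, had a difference of 1.04 (edgeR adjusted p = 0.0434). Each was called under 8 of 18 alternatives.

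NGP libraries, which took no part in sorting the genes, were looked up by class. They held 5.49 to 11.6 M fragments and gave calls for 248 genes higher (2.07%) and 256 lower (2.13%) of 11998 tested in both lines. Of late only rising genes 43 of 359 were higher in NGP (12%) and 1 lower, and of late only falling genes 37 of 385 were lower (9.61%) and 6 higher. The genes called on both days and larger at 6 days had the largest shares, 30 of 75 rising genes higher in NGP (40%) and 20 of 88 falling genes lower (22.7%). Their median levels in Kelly were also high, at 6.75 and 7.09 log2 CPM beside 4.49 over all tested genes. The late only genes had medians of 6.27 (rising) and 5.41 (falling). The part of expression level in these shares was not tested. Of the early only genes a single one was called in NGP, a rising gene that was higher (1 of 66). NGP was measured at 6 days and not at 1 day here, so these shares do not compare the days. Only some of the amino acid response genes are given for NGP, and they do not describe the list there. Among these, STC2 fell in NGP (-1.53, edgeR adjusted p = 3.94e-05). CHAC1 at -1.75 (adjusted p = 0.146), ASNS at -0.57 (adjusted p = 0.0745) and SLC7A11 at 1.95 (adjusted p = 0.253) did not pass the edgeR test there.

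**Figure D5:**
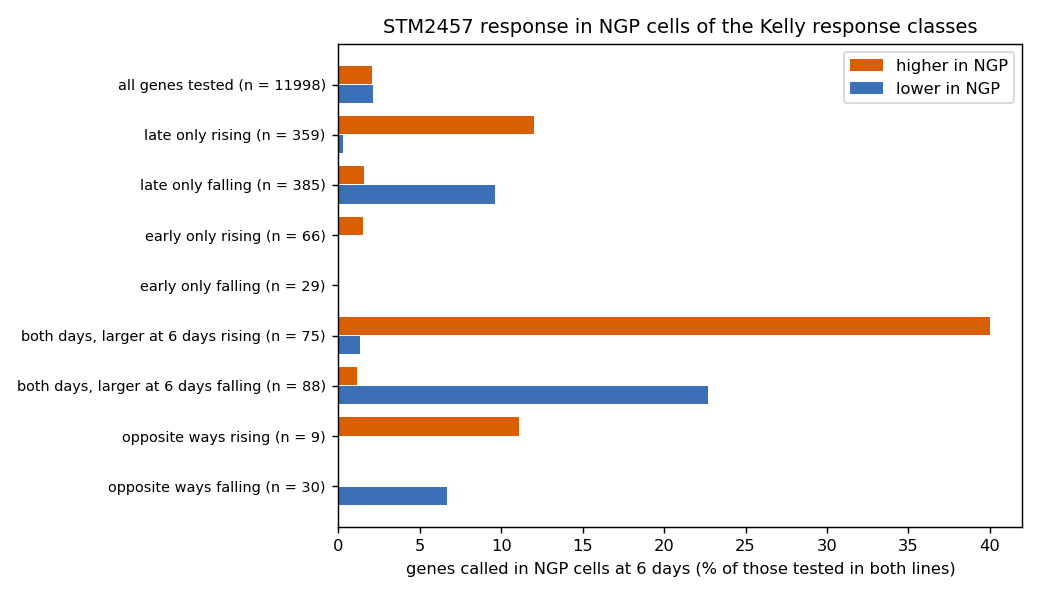
Bars give the percent of each Kelly class called higher (orange) or lower (blue) by STM2457 in NGP cells at 6 days, of the genes tested in both lines (n on the axis). Genes called on both days in Kelly and larger at 6 days reach 40% higher for rising and 22.7% lower for falling genes, against 2.07% and 2.13% of all.

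The m6A pulldown of NGP cells given DMSO for 6 days was a further measure that the sorting did not use. The log2 ratio of pulldown to input had a median of 0.06 over 12247 tested genes (quartiles -0.86 and 0.93). It was -1.55 for 29 early only falling genes (quartiles -1.94 and -0.88), -0.67 for late only falling genes, -0.74 for genes falling on both days and -0.01 for late only rising genes. The median was 0.22 for early only rising genes and -0.17 for genes rising on both days with the larger rise at 6 days. Among genes that went opposite ways it was -0.93 for 9 that rose at 6 days and -0.07 for 30 that fell. These ratios are of whole genes in another line, with no peak positions used, and were not tested. Late only rising genes had long exons, at a median of 7551 bases, and late only falling genes short ones, at 3440.5 bases. The median of DMSO 6 days over 1 day was -0.75 in the former and 1.35 in the latter, and of STM2457 6 days over 1 day -0.21 and 0.66 (log2). With offsets for GC content and exon length fitted per library, an alternative chosen after seeing the data, 1405 genes were called, 624 higher and 781 lower, of which 1045 were among the 1158.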

How the data were processed

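The authors counted read pairs over the exons of each gene with featureCounts 1.5.3, without a strand option, on the protein-coding part of GENCODE on GRCh38, per the file headers; HISAT2 2.1.0 and Trimmomatic 0.36 are named in the submitters' processing notes. The deposited files hold raw counts for 19923 genes, of which 5491 share exon bases with another gene, where counts cannot be assigned with certainty. Groups were taken from the labels.

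The 12 Kelly input libraries were fitted together as 4 groups with edgeR 4.0.16 (quasi-likelihood test, TMM scaling, R 4.3.3), after filterByExpr (minimum count 10, minimum total 15), which left 13773 genes. Contrasts were two-sided with Benjamini-Hochberg adjustment over all of them and a threshold of 0.05; 8 residual degrees of freedom remained and the common biological coefficient of variation was 0.0812. CPM are counts scaled per M mapped to genes after TMM scaling, and changes are log2. NGP inputs were fitted on their own, and the NGP pulldown ratio (DMSO libraries) is a look-up value. The method was tried on simulated data with 2-fold changes planted in well-expressed genes. That trial does not cover smaller changes or low genes.

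Named genes were called in the difference, averaged at least 2 log2 CPM and had DMSO and STM2457 libraries that did not overlap on each day whose response is claimed: the 5 largest late only rising and falling, the 4 largest early only each way, 6 opposite ways each way, and 2 each way of the other classes, plus the 2 largest called genes of each list, METTL3 and MYCN. Genes outside that rule (such as stathmin genes, ITGB5 or ATF4) were named after their values were seen, to describe their list. A few genes that met the rule are not reported here. The members and lists were chosen with earlier results of these data known. Promoter windows are RefSeq's (GRCh38.p14), matched by symbol. Alternatives were RLE scaling, DESeq2 1.42.0, no filter, the replicate number as a block, thinning to the smallest library, a 2-fold minimum and leaving out each library. For the classes, each day was also fitted alone. For late only and early only, an unadjusted p of at least 0.05 on the other day was also asked. Offsets for GC content and length were added after seeing the data. Same-numbered DMSO and STM2457 libraries did not deviate together (r from -0.351 to 0.056 over the 6 pairs). No 2 replicates of a Kelly input group agreed within counting noise (chi-square per degree of freedom 2.73 to 20.3). The NGP replicates lay further apart at the upper end, with 10.7 to 29.6 for the inputs and 25.1 to 139 for the DMSO pulldown. The libraries' depth, 5.77 to 31.49 M counts, sets the precision of low genes.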

Additional observations from a re-analysis of the deposited data

Results flagged for a closer look

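The results in this section are differences between the 6 day and the 1 day response that passed the test of the difference itself (edgeR, adjusted over all genes), all as log2 of the 6 day response minus the 1 day response. They number 1158 over all genes, and the named genes among them follow by class; no explanation was weighed.

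Late only, rising: NR3C2 differed by 2.05, LTB4R2 by 1.48, IGFBP3 by 1.46 and RHBG by 1.45. Late only, falling: CDKN1C differed by -3.54, XAGE1B by -2.81, AQP1 by -2.42, SECTM1 by -1.91 and ECEL1 by -1.81. Treated and DMSO libraries of 6 days that did not overlap were a condition for naming these genes.

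Early only: EMC6 differed by -1.11, PET117 by -0.84, MRPL41 by -0.82 and C11orf96 by -0.80 after an early rise, and MAGEA2 by 1.41, TNNT2 by 0.89, HS3ST4 by 0.56 and DNAJC18 by 0.54 after an early fall. PET117 kept its call under 7 of 18 alternatives.

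Opposite ways, down and then up: CNGB1 differed by 1.25, C14orf132 by 0.91, SEZ6 by 0.74, DPYSL2 by 0.64, TMEM140 by 0.64 and SNRNP200 by 0.42. Opposite ways, up and then down: PHLDA1 differed by -1.94, SHOX2 by -1.53, G0S2 by -1.52, NPW by -1.51, IRX6 by -1.39 and LARP6 by -0.96.

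On both days and larger at 6 days: ARHGEF28 differed by 1.26, IGFBP5 by 1.10, CHAC1 by -3.15 and STC2 by -2.72. On both days and larger at 1 day: CCDC85B differed by -0.68, LAMTOR2 by -0.53 and PQBP1 by 0.25. Called on neither day alone: CNKSR3 differed by -1.11 and RASGRF2 by 1.04.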

How the results depend on the processing

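Over the 84 named genes called in the difference and 18 alternatives, 1330 of 1512 values kept direction and call, 182 lost the call and 0 changed sign; 53 genes kept it throughout. METTL3, not called, ranged from -0.14 to 0.02. Genes called in the difference numbered 1130 with RLE scaling, 1400 with DESeq2, 1610 without the filter and 173 with a 2-fold minimum (48 higher, 125 lower). After thinning 797 genes were called, of which 709 were among the 1158. Higher calls numbered 1021 and lower calls 589 without the filter, and 431 were lower after thinning. With the replicate number as a block 828 genes were called (815 of them among the 1158), 316 higher; the numbers did not pair the libraries. Late only genes numbered 127 with the 2-fold minimum. Early only genes numbered 176 without the filter, 64 with the replicate block, 58 after thinning, 159 with GC and length offsets and 10 with the 2-fold minimum. Genes larger at 6 days on both days numbered 109 with the block, 90 after thinning and 19 with the 2-fold minimum, and those larger at 1 day 4, 5 and 0. Opposite genes numbered 20 after thinning, of which 13 were among the 44, and 7 with the 2-fold minimum. The cause of these shifts was not tested. The 2-fold minimum can only remove genes. Thinning removes counts, but the thinned classes also held genes that were not in them before. Of 584 late only genes after thinning 460 were late only with all counts, and of the 58 early only genes 44 were early only.

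Leaving out 1 library gave 814 to 1533 calls in the difference, 317 to 932 higher and 421 to 652 lower, 620 to 1005 late only, 45 to 178 early only, 89 to 219 larger at 6 days, 1 to 14 larger at 1 day and 18 to 59 opposite. Early only genes numbered 171 without STM2457 replicate 1 at 6 days and 178 without replicate 3 (64 and 71 rising, 107 falling in each), against 70 rising and 31 falling with all libraries. Low genes such as CDKN1C, NPW, XAGE1B and MAGEA2 rest on few counts at 1 day.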
